A study of Trichoderma reesei with 4 samples.

Results

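The 3 hydrophobin genes hfb1, hfb2 and hfb3 of the filamentous fungus Trichoderma reesei were followed from mycelial growth into asexual sporulation. They are the array features TRIRE2_73173 (hfb1), TRIRE2_119989 (hfb2) and TRIRE2_123967 (hfb3), picked by gene identity out of 9126 features, and all 3 were measured at every time. These were also the only 3 genes to which the RefSeq gene table gave an hfb symbol. Other hydrophobin genes of the fungus were not analysed here.

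Cultures of QM9414, an early T. reesei mutant strain described as a low producer of cellulase, grew on cellophane laid over malt extract agar. The groups were sporulating cultures at 3, 6 and 9 h and a mycelium control at 0 h, all of the same strain and each with 2 biological replicas. No non-sporulating culture of matching age is among the samples, so changes due to sporulation and to time in culture cannot be told apart. Total RNA was hybridised to a 1-colour gene array, and the deposited table gives the mean and SD of log2 signal at each time. With 2 replicas, the 2 values behind each mean follow from its SD, although not which replica gave which value. The median level over all features lay between 11.53 and 11.56 at all 4 times, and the median SD between 0.0821 and 0.0992.

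Hydrophobins are small secreted proteins of filamentous fungi with a conserved pattern of cysteine residues that form disulfide bridges. They gather at boundaries between water and air, lower the surface tension so that hyphae can grow out of the medium, and coat aerial hyphae and spores with a water-repellent film. In T. reesei the protein of hfb1 is known from the walls of vegetative hyphae and that of hfb2 from conidia, the asexual spores, and hfb3 encodes a further member of the same class.

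The genes hfb2 and hfb3 rose at the first sampled time of sporulation and were still high at 6 and 9 h, while hfb1 stayed low throughout. Against 0 h, hfb2 was 8.56-fold higher at 3 h and 9.08-fold higher at 9 h, and hfb3 22.9-fold and 20.8-fold. No change of hfb1 passed the test at any time. Genes were called as rising or falling when the adjusted p was below 0.05 and the means differed 2-fold or more (1 log2 unit). Of the 3 genes, 2 rose at 3 h, where 6.77% of all features did. The count was again 2 at both 6 h and 9 h, where 6.68% and 7.48% of all features rose. The same 2 genes rose at all 3 times, as did 3.77% of all features. The 3 comparisons share the 0 h arrays. In bulk RNA such as this, more cells that express a gene and more transcript per cell cannot be told apart.

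**Figure D1:**
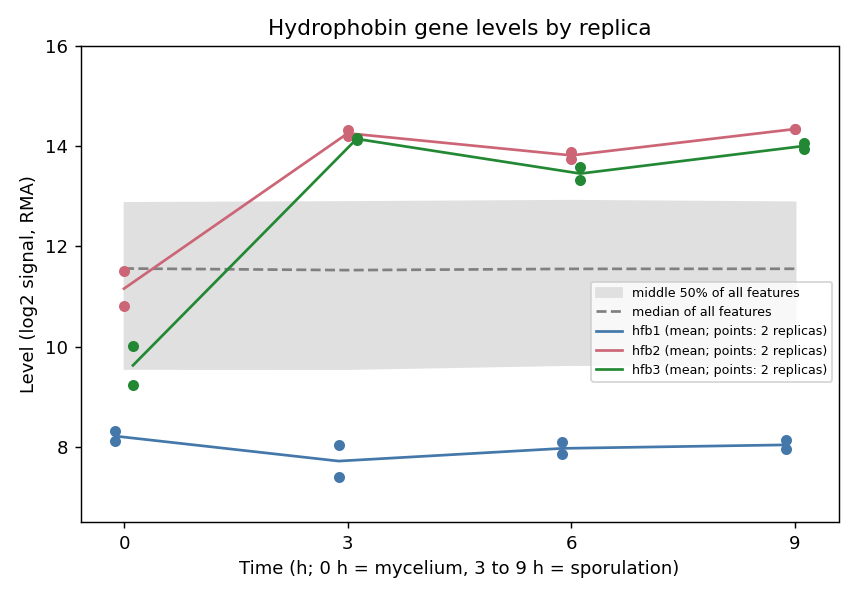
Level of hfb1, hfb2 and hfb3 (log2 signal, vertical axis) at 0, 3, 6 and 9 h (horizontal axis), with lines through the means, points for the 2 replica values, a dashed line for the median of all 9126 features and a grey band for their middle 50%. The replica values of hfb2 and hfb3 at 3, 6 and 9 h, 13.33 to 14.34, all lie above the band, and those of hfb1, 7.40 to 8.32, all lie below it.

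The gene hfb3 had the larger rise. Its 2 replica values were 9.24 and 10.02 in mycelium (0 h), then 14.13 and 14.16 in the 3 h cultures, 13.33 and 13.58 in the 6 h cultures, and 13.94 and 14.07 in the 9 h cultures. Every sporulation value stood above both mycelium values, and the lowest of them, at 6 h, was more than 3 log2 units above the higher mycelium value. Replicas without overlap were common here, in 69.9% of all features for 3 h against 0 h, 72.6% for 6 h and 74.9% for 9 h. The mean level was 14.15 ± 0.025 at 3 h, against 9.63 ± 0.55 at 0 h (SD, n = 2 each). The log2 change was 4.52 with a standard error of 0.23 and a 95% interval of 3.99 to 5.04 (limma adjusted p = 3.73e-06). It was 3.82 at 6 h (interval 3.30 to 4.35, adjusted p = 1.03e-05) and 4.38 at 9 h (interval 3.85 to 4.90, adjusted p = 3.99e-06). Among all 9126 features, 32 had a larger positive change at 3 h, 23 had one at 6 h and 30 had one at 9 h.

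The gene hfb2 started from a higher place among the features and rose by less. Its replica values were 10.81 and 11.51 in mycelium (0 h), then 14.19 and 14.32 in the 3 h cultures, 13.74 and 13.89 in the 6 h cultures, and 14.34 for both 9 h cultures. Again no sporulation value overlapped the mycelium values. The mean level was 14.26 ± 0.090 at 3 h, against 11.16 ± 0.49 at 0 h (SD, n = 2 each). This log2 change of 3.10 had a standard error of 0.20 and a 95% interval of 2.63 to 3.57 (limma adjusted p = 1.47e-05). The change was 2.66 at 6 h (interval 2.19 to 3.13, adjusted p = 3.76e-05) and 3.18 at 9 h (interval 2.71 to 3.65, adjusted p = 1.08e-05). Larger positive changes than that of hfb2 were found in 73 features at 3 h, in 86 at 6 h and in 63 at 9 h.

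The gene hfb1 had replica values of 8.12 and 8.32 in mycelium (0 h), then 7.40 and 8.04 in the 3 h cultures, 7.86 and 8.09 in the 6 h cultures, and 7.96 and 8.13 in the 9 h cultures. Its sporulation values lay below both mycelium values at 3 h and 6 h, where most features also had replicas without overlap, and at 9 h the replicas overlapped. The mean level was 7.72 ± 0.46 at 3 h, against 8.22 ± 0.15 at 0 h (SD, n = 2 each). The log2 change was -0.50 with a 95% interval of -0.98 to -0.021 (limma adjusted p = 0.0859). At 6 h it was -0.24 (interval -0.72 to 0.23, adjusted p = 0.375) and at 9 h -0.18 (interval -0.65 to 0.30, adjusted p = 0.527). These intervals are for each gene by itself and not adjusted over all features, unlike the p-values. The interval at 3 h lies below 0 and reaches a fall of almost 2-fold, although the adjusted p did not pass. Those at 6 h and 9 h include 0. A 2-fold rise lies outside all 3 intervals.

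**Figure D2:**
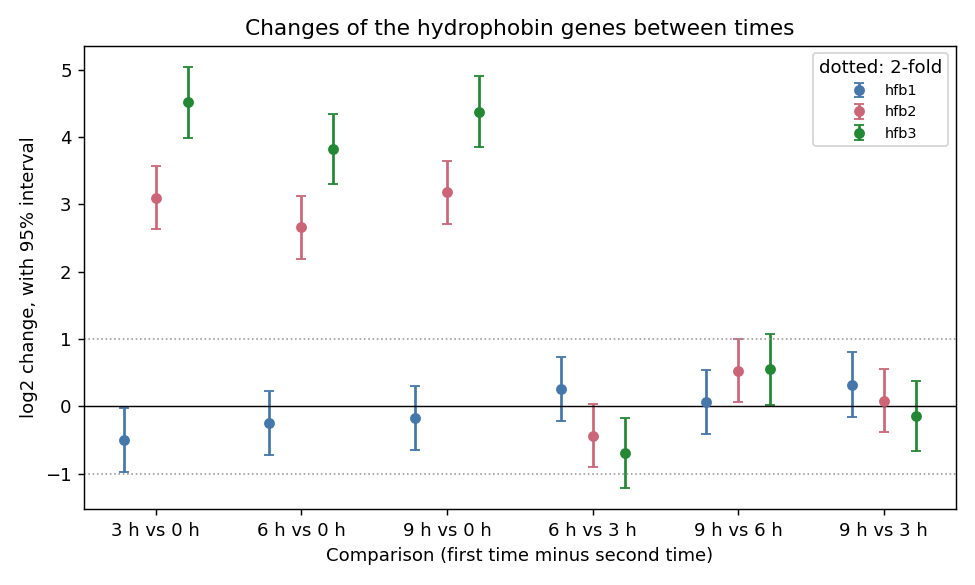
log2 change of hfb1, hfb2 and hfb3 (vertical axis) in the 6 comparisons of 2 times (horizontal axis, first time minus second). Points are changes of the means of 2 replicas, bars are 95% intervals of limma's moderated test, and dotted lines mark 2-fold. The intervals of hfb2 and hfb3 against 0 h all lie above 2-fold, from 2.19 upwards, and those of hfb1 lie below 1.

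The place of each gene among all features was taken from its signal. Features have different probes, so such a place ranks signal and not the number of transcripts. The level of hfb2 exceeded 43.3% of all features in mycelium (0 h), then 94.7% of them at 3 h, 89.6% after 6 h and 95.5% after 9 h. In sporulating cultures it thus stood in the brightest part of the array, against a place just below the median in mycelium, with 481 features above it at 3 h and 414 above it at 9 h. The level of hfb3 exceeded 25.5% of features in mycelium (0 h), then 93.6% of them at 3 h, 84.1% after 6 h and 92.1% after 9 h. At 0 h it was 1.93 log2 units below the median of all features, and at 3 h it was 2.62 above it.

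The signal of hfb1 exceeded 16.6% of features in mycelium (0 h), then 13.9% of them at 3 h, 14.9% after 6 h and 15.1% after 9 h, and stayed 3.34 to 3.81 log2 units below the median. A level for probes without a target was taken from the 3 features of the MAT1-1 mating type, which the strain is not expected to carry. Over the 4 times these lay between 4.0 and 5.53, and the lowest mean of hfb1 was 2.19 log2 units above the highest of them. The highest mean of any feature was 15.93, and no hydrophobin gene came within 1 log2 unit of it.

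**Figure D3:**
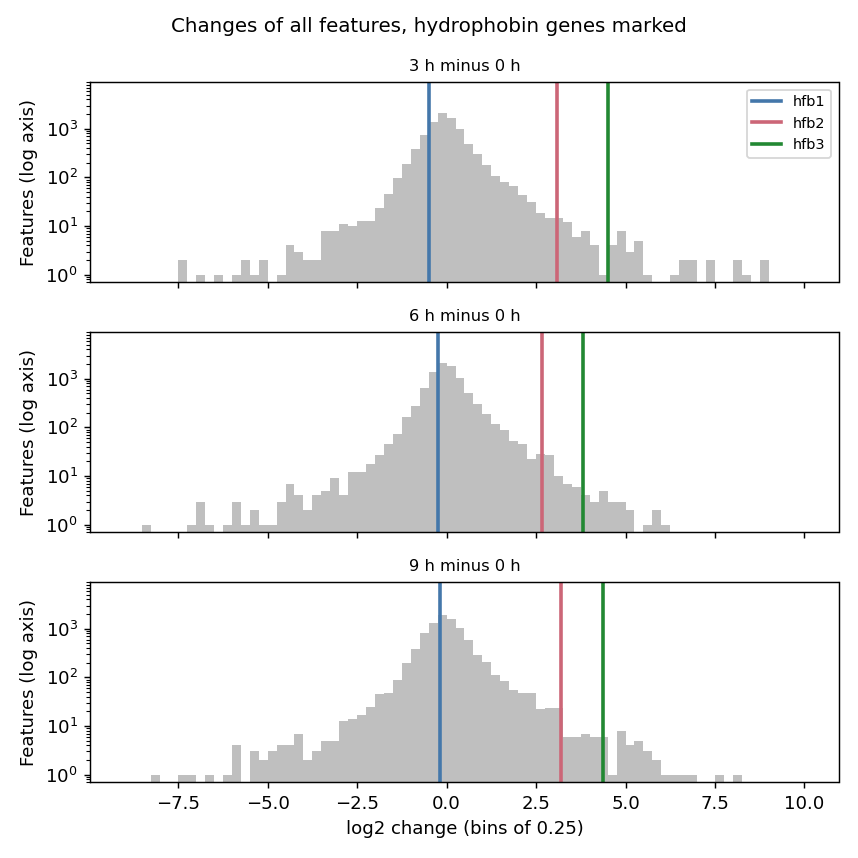
Distribution of the log2 changes of all 9126 features against 0 h (horizontal axis, bins of 0.25; number of features on a log vertical axis) at 3, 6 and 9 h, with coloured lines for hfb1, hfb2 and hfb3. hfb3 lies far in the right tail, with 32, 23 and 30 features to its right, while hfb1 lies within the main body, between -0.50 and -0.18.

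The changes of the 3 genes were set side by side. The change of hfb3 exceeded that of hfb2 by 1.42 log2 units at 3 h, by 1.17 in the 6 h and by 1.19 in the 9 h cultures, or by 2.67-fold, 2.25-fold and 2.29-fold. The smallest change of hfb3 over any pairing of a 3 h with a 0 h replica, 4.11, was above the largest of hfb2, 3.51. At 6 h and 9 h these bounds were 3.31 against 3.08 and 3.92 against 3.53. A test of the difference needs to know whether the same mycelium replica was the higher one for both genes, which the means and SDs do not tell. If it was, the SD of the difference between the genes at 0 h was 0.058, and if not it was 1.04, so the difference was not tested. The gap to hfb1 was wider. The smallest change of hfb2 over replica pairings was 2.69 at 3 h, against -0.072 for the largest of hfb1.

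From 3 h onwards the steps of hfb2 and hfb3 were smaller than their rises from 0 h. Counted in either direction, 11.4% of all features changed more than hfb3 from 3 h to 6 h, and 23.1% more than hfb2. From 6 h to 9 h the shares were 12.2% and 13.3%. From 3 h to 6 h the difference in mean was -0.69 for hfb3 (interval -1.22 to -0.17, limma adjusted p = 0.066) and -0.44 for hfb2 (interval -0.91 to 0.028, adjusted p = 0.164). At 9 h hfb3 was 0.55 above its 6 h level (interval 0.027 to 1.08, adjusted p = 0.138) and hfb2 0.53 (interval 0.057 to 0.99, adjusted p = 0.119). The replicas of both genes lay lower at 6 h than at 3 h and at 9 h without overlap. Counted in either direction, and for each step by itself, replicas did not overlap in 61.4% of all features between 6 h and 3 h and in 64.6% between 9 h and 6 h. The share of features that lay lower at 6 h than at both 3 h and 9 h was not counted. The count of hydrophobin genes that rose or fell was 0 of 3 in both steps, where 2.38% and 1.12% of all features rose and 2.62% and 0.811% fell.

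The standard error of these steps includes the spread at 0 h, which was wide for both genes. With only the 2 times compared in the fit, the step of hfb3 to 6 h had adjusted p = 0.0241 and the steps to 9 h had adjusted p = 0.0139 for hfb2 and 0.0185 for hfb3, all still under 2-fold. The step of hfb2 to 6 h had adjusted p = 0.0623 in that fit. Between 9 h and 3 h directly, hfb2 differed by 0.085 (interval -0.38 to 0.55) and hfb3 by -0.14 (interval -0.67 to 0.38), with limma adjusted p = 0.807 and 0.706. Changes of 2-fold in either direction lie outside both intervals. None of the 3 genes was called there, where 3.02% of all features rose and 3.50% fell. For hfb1 the differences were 0.25 between 6 h and 3 h, 0.070 between 9 h and 6 h and 0.32 between 9 h and 3 h, and none passed (limma adjusted p = 0.428, 0.847 and 0.296).

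The spread between the mycelium replicas set hfb2 and hfb3 apart from most features. The SD of hfb3 at 0 h, 0.55, was exceeded by 111 of 9126 features, and that of hfb2, 0.49, by 180. On a linear scale the 2 mycelium replicas differed 1.72-fold for hfb3 and 1.62-fold for hfb2. In sporulating cultures the SDs of both genes were smaller than in mycelium. In time order they were 0.090, 0.10 and 0.0025 for hfb2 and 0.025, 0.18 and 0.091 for hfb3. Their place among all features varied, since the SD of hfb3 at 3 h was smaller than that of 85.4% of features and its SD at 6 h was larger than that of 79.7%. For hfb1 the wide time was 3 h instead, where its SD of 0.46 was exceeded by 424 features. The rises of hfb2 and hfb3 were several times the gap between mycelium replicas, 0.70 log2 units for hfb2 and 0.78 for hfb3. The standard errors of these rises pool the wide spread at 0 h with the narrower spread of the later times. With only the 2 times compared in the fit, limma adjusted p at 3 h was larger, 7.62e-04 for hfb3 and 0.00165 for hfb2. In that fit it was 1.03e-04 and 2.88e-04 at 6 h, and 3.23e-05 and 8.28e-05 at 9 h.

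**Figure D4:**
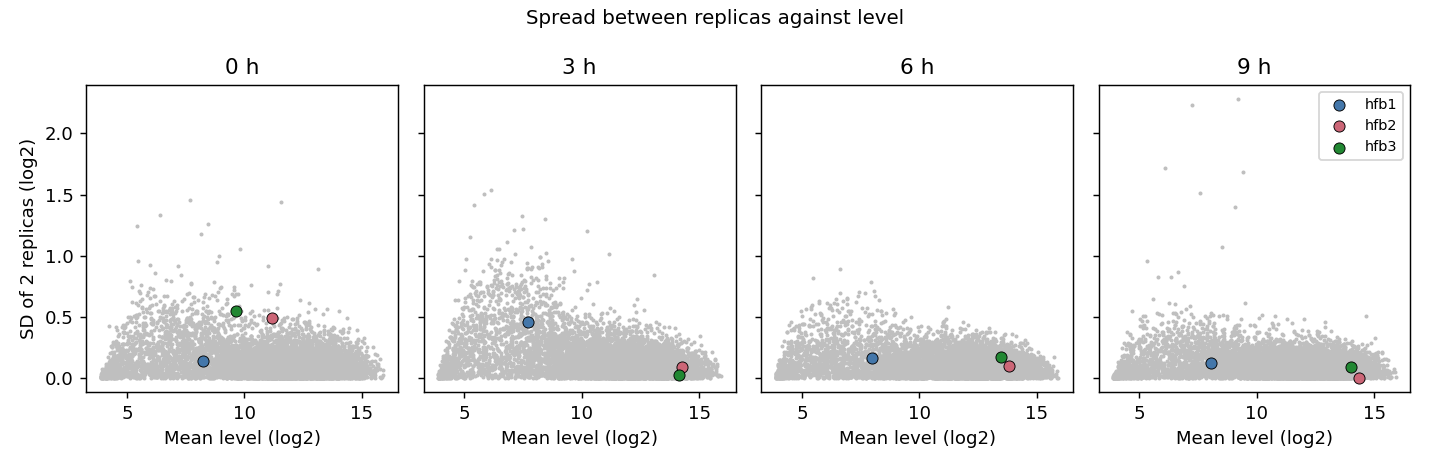
SD of the 2 replicas (vertical axis, log2) against mean level (horizontal axis, log2) for all 9126 features (grey) and the 3 hydrophobin genes (coloured) at each time. At 0 h the SDs of hfb2 and hfb3, 0.49 and 0.55, were exceeded by 180 and 111 features. At 3 h that of hfb1, 0.46, was exceeded by 424.

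The submitters followed conidiation by D-mannitol dehydrogenase, so its gene lxr1 serves as the marker. Its replica values were 11.82 and 12.11 in mycelium (0 h), then 13.25 and 13.42 in the 3 h cultures, 13.84 and 14.04 in the 6 h cultures, and 13.80 and 13.98 in the 9 h cultures. Unlike the means of hfb2 and hfb3, the mean of lxr1 was higher at 6 h than at 3 h, by 0.61 (interval 0.29 to 0.92, limma adjusted p = 0.0176, under 2-fold). Its log2 change against 0 h was 1.37 at 3 h and 1.93 at 9 h, while hfb2 had 3.10 and 3.18 and hfb3 4.52 and 4.38. These comparisons share their arrays, and the difference between lxr1 and the hydrophobin genes in time course was not tested.

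A short list of genes of conidiation and light response was read beside the hydrophobins. Of lxr1, env1, blr1, blr2, vel1 and lae1, 4 had that symbol in the gene table. Of these 4, 2 rose and 2 were not called at each of the 3 times against 0 h. The median log2 changes of the 4 genes were 0.94, 0.73 and 0.99 in time order. The medians of all features were -0.049, -0.028 and -0.037. Of all features, 6.77%, 6.68% and 7.48% rose at these times. The genes that rose were lxr1 and env1, the gene of a light-response regulator, whose levels were 10.49 ± 0.056 in mycelium and, in time order, 11.94 ± 0.0092, 11.56 ± 0.060 and 11.82 ± 0.14 in the sporulating cultures. Like the means of hfb2 and hfb3, that of env1 was lowest of the sporulation times at 6 h, by -0.38 against 3 h (limma adjusted p = 0.0359, under 2-fold). The blue-light receptor genes blr1 and blr2 stayed under 2-fold at all 3 times. In time order, blr1 had changes of 0.51, 0.39 and 0.64 (limma adjusted p = 0.0111, 0.0379 and 0.00341). Those of blr2 were 0.13, 0.30 and 0.30 (limma adjusted p = 0.377, 0.0576 and 0.0514).

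The genes with the most similar time course were sought by the distance between the 3 log2 changes against 0 h, taken at 3, 6 and 9 h from 2 replicas each. All features share the same arrays, so the distances describe these cultures only. No feature lay within 0.5 log2 units of hfb3, and 3 lay within 0.5 of hfb2. The 2 hydrophobin genes were 2.19 apart, with 26 features nearer to hfb3 than hfb2 was and 160 nearer to hfb2 than hfb3 was. Only 235 of the 9126 features have a symbol, so most features near a hydrophobin gene go unnamed. Among genes with a symbol, the nearest to hfb3 were cel61a, encoding a lytic polysaccharide monooxygenase, at a distance of 1.09, the cellobiohydrolase gene cel7a at 1.40, and ooc1 at 1.84, with 3, 5 and 15 of all features nearer than these. The nearest to hfb2 were cel7a at 1.04, the mannanase gene man5a at 1.40 and ooc1 at 2.12, with 30, 58 and 146 features nearer.

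The level of cel61a was 8.71 ± 0.49 in mycelium and, in time order, 14.14 ± 0.016, 12.43 ± 0.099 and 12.51 ± 0.092 in the sporulating cultures. Its first rise was thus larger than that of hfb3, 5.43 against 4.52 log2 units, and by 9 h its change was smaller, 3.80 against 4.38, differences that were not tested. The level of cel7a was 11.46 ± 0.17, 15.50 ± 0.072, 14.20 ± 0.13 and 15.07 ± 0.10 at the 4 times, with a lower mean at 6 h than at 3 h and 9 h as for hfb2 and hfb3. The log2 changes of man5a against 0 h were 4.08, 1.66 and 3.10 in time order, also lowest at 6 h. Those of ooc1 were 3.01, 3.22 and 5.23, without a lower mean at 6 h than at 3 h. For hfb1 the search found a common pattern. In all, 2347 features, or 25.7%, lay within 0.5 log2 units of it, the nearest with a symbol being the ribosomal protein genes rpl34 at 0.053 and rps15 at 0.069 and cit1 at 0.10.

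The genes listed next to each hydrophobin gene in the RefSeq table were read as well. They were looked up by position, which the rule for named genes had not foreseen, and the table does not name the chromosome or scaffold. None of these 6 genes was called as rising or falling at 3, 6 or 9 h against 0 h. Of all features, 6.77%, 6.68% and 7.48% rose at these times, so the count says little about these 6 genes. The share of all features that fell against 0 h was not counted here. Next to hfb2, TRIRE2_56149 had a level of 13.87 ± 0.011 at 3 h, against 13.08 ± 0.18 at 0 h, a log2 change of 0.79 (limma adjusted p = 0.00123, under 2-fold), and its changes were 0.25 at 6 h (adjusted p = 0.126) and 0.82 at 9 h (adjusted p = 9.38e-04). On the other side of hfb2, TRIRE2_119991 had log2 changes of -0.085, -0.13 and -0.10 at 3, 6 and 9 h (limma adjusted p = 0.58, 0.361 and 0.489). Next to hfb3, TRIRE2_111778 had 0.67, 0.14 and 0.23 (limma adjusted p = 0.00596, 0.44 and 0.212). On its other side TRIRE2_69489 had -0.12, -0.53 and -0.64 (limma adjusted p = 0.497, 0.0119 and 0.00394), all under 2-fold. Next to hfb1, TRIRE2_106089 had -0.44, -0.16 and 0.092 (limma adjusted p = 0.147, 0.607 and 0.769), and TRIRE2_59359 had -0.35, -0.37 and -0.40 (limma adjusted p = 0.0551, 0.0488 and 0.031).

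The p-value per feature in the authors' deposited table, over all 4 times, was 0.00447 for hfb3, 0.00667 for hfb2 and 0.46 for hfb1.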

How the data were processed

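The authors deposited log2 expression values made with RMA (named in the file headers and in the submitters' processing notes), as a mean and an SD for each of 4 times, with 1 p-value per feature. The version of RMA and the genome build are not given in the sources used here. RMA equalises the arrays' distributions and hides any difference in total RNA per cell. Single arrays were not analysed here, and their number, 2 per time, limits the precision. A one-way analysis of variance from the means and SDs, with Benjamini-Hochberg adjustment, gave the authors' p-value within 1% for 9015 of 9126 features assuming 2 replicas, and for 14 assuming 3, so the SD was taken as that of 2 replicas. The means were identical in the second log2 table.

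From means, SDs and 2 replicas, limma 3.58.1 (R 4.3.3) was run on all 9126 features with all 4 times in 1 fit, no covariates, 4 residual and 3.82 prior degrees of freedom, and p-values adjusted over all features. The computation was tested on simulated data. P-values set a difference of means against the spread between these replicas, pooled over the 4 times and moderated over all features. Symbols come from the RefSeq gene table for strain QM6a (assembly v2.0), which listed 9094 of 9122 TRIRE2 identifiers. The 3 genes, the lists and the tests were chosen with earlier results of these data known. The naming rule took the 3 genes, other hydrophobin genes found by protein pattern, lxr1, and the 3 nearest genes with a symbol by time course. With no protein table that list was the 3 hfb symbols, and no promoter motifs were searched. Alternatives were median centring, quantile normalization, other variance models, a fit of 2 times, a filter on low features, other fold thresholds and leaving out each replica.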

Additional observations from a re-analysis of the deposited data

How the results depend on the processing

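The number of hydrophobin genes called in each of the 6 comparisons, 2 against 0 h and 0 in the steps between later times, was the same under median centring, quantile normalization, a trended prior, no moderation, a fit of the 2 times compared, exclusion of the lowest 25% of features by mean level, 4-fold and 1.5-fold thresholds, and without either replica at either time. The filter on low level removed hfb1 and kept 6844 features. Without 1 replica the change at 3 h against 0 h ranged from 4.13 to 4.91 for hfb3, from 2.75 to 3.45 for hfb2 and from -0.82 to -0.17 for hfb1. For hfb1 the lowest adjusted p at 3 h, 0.00532, came without its higher value at 3 h, with a change still under 2-fold. The step of hfb3 from 3 h to 6 h, under 2-fold throughout, had adjusted p = 0.0432 with the trended prior and 0.0174 without low features, over a range of 0.0174 to 0.263. The sign of hfb1, not called in any of them, turned in 4 of its 66 alternative values: between 6 h and 3 h without the lower 3 h value (range without 1 replica -0.071 to 0.58), between 9 h and 6 h without the higher 9 h value (-0.017) or the lower 6 h value (range -0.048 to 0.19), and between 9 h and 3 h without the lower 3 h value (range -0.00081 to 0.65). When a replica was left out, its higher or lower value was dropped for every feature, and the remaining one was assumed to vary like the other times. The wider protein pattern was not run, since no protein table was used. No paired analysis was possible because the deposited means and SDs carry no replicate numbers.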

Other observations

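The wide spread of hfb2 and hfb3 between mycelium replicas was set against all features. An SD at 0 h at least as large as that of hfb2 was shown by 181 features, or 1.98%. Of these, 37, or 20.4%, were higher at 3 h than at 0 h by both thresholds, where 6.77% of all features were. Both counts include hfb2 and hfb3 themselves. The 618 features higher at 3 h had a median SD of 0.129 at 0 h, against 0.0981 for all features, and of 0.113 at 3 h, against 0.0992. These are descriptions with no test, and whether 1 mycelium culture accounts for the spread was not tested, because the deposited values do not tell the replicas apart.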
